A study of Mus musculus with 32 samples.

Results

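The 8 genes described here were the glucocorticoid receptor gene Nr3c1, the mineralocorticoid receptor gene Nr3c2 and 6 genes known to be switched on by these receptors, Fkbp5, Tsc22d3, Sgk1, Zbtb16, Plin4 and Cdkn1a. They were chosen by symbol from the 33000 genes of a 3'Pool-seq experiment, and each symbol matched 1 row. The question was whether chronic IL6 in the brain came with a change of stress-hormone target genes in cortex. RNA came from the frontal cortex of mice 3 months of age, labelled as strain C57BL/6 in both genotypes. WT mice were compared with mice homozygous for GFAP-IL6, a transgene in which astrocyte regulatory sequence drives the cytokine IL6. The labels named no further allele and no treatment, and gave neither the sex of the mice nor the hour of dissection. Each genotype was measured with 50, 10, 1 and 0.5 ng of RNA in reverse transcription, with 4 libraries for each combination and 32 in all. The labels do not say whether libraries with the same number came from the same RNA or whether numbers within a group stand for separate mice, so p-values measure the spread between libraries, which may be partly technical. In bulk cortex, fewer cells of a type and less RNA per cell cannot be told apart.

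Corticosterone, the main glucocorticoid of mice, crosses into the brain and binds both receptors, which sit in the cytoplasm with heat shock proteins until hormone arrives. The loaded receptors move to the nucleus and bind DNA at paired copies of a short motif, TGTTCT on either strand. The mineralocorticoid receptor binds corticosterone more tightly than the glucocorticoid receptor does, so the latter responds mostly to stress and to the daily peak. Fkbp5 encodes a co-chaperone that lowers hormone binding by the receptor and so closes a feedback loop. Tsc22d3 encodes the glucocorticoid-induced leucine zipper, Sgk1 a kinase of ion channel and transporter control, and Zbtb16 a zinc finger repressor. Plin4 encodes a coat protein of lipid droplets, and Cdkn1a an inhibitor of cyclin-dependent kinases that the p53 tumour suppressor also induces.

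Promoter sequence from the RefSeq table (GRCm38.p6) was searched for the receptor motif TGTTCT on both strands in the 250 bases before each transcription start. The table matched 6 of the 8 genes with 14 windows, and Nr3c1 and Zbtb16 were not matched. The motif was in 4 of the 14 windows, 3 of Sgk1 and 1 of Tsc22d3, and in 16.1% of all 32851 windows of this length. The following windows are shown because they carry the motif in its paired form, carry it singly, and lack it. Capitals mark the motif, and each sequence reads 5′ to 3′ on the strand of the gene.
Sgk1, chr10:21993640-21993889, plus strand: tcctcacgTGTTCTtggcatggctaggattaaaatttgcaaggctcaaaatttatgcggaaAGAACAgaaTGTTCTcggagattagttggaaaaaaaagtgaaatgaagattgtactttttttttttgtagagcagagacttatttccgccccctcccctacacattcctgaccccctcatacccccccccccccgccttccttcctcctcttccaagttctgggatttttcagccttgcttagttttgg
Tsc22d3, chrX:140600660-140600772, minus strand: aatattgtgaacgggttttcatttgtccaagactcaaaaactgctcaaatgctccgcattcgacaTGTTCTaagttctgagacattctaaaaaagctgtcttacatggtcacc
Fkbp5, chr17:28486150-28486399, minus strand: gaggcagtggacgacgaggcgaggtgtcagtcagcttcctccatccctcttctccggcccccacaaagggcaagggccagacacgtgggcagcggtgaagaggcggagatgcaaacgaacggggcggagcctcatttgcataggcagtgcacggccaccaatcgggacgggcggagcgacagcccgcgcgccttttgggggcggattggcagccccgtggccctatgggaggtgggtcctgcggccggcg
The Sgk1 window held the motif 3 times, and AGAACA and TGTTCT stood there as an inverted pair with a gap of 3 bases. That pair was in 3 of the 32851 windows (0.00913%), the Sgk1 window included. For Tsc22d3 the 113 bases that lie outside annotated exons are printed. A match is a description of letters and not of a bound site, and the Fkbp5 window says nothing about sites elsewhere in that gene.

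None of the 8 genes passed the test of genotype at any input (edgeR quasi-likelihood test, Benjamini-Hochberg adjusted p under 0.05 over all genes tested). The filter on low counts kept 7 of them at every input and left out Plin4. At 50 ng 0 of 7 passed with edgeR, 2 had an unadjusted p under 0.05 (Fkbp5 and Zbtb16), and of all 11773 tested genes 0.280% passed and 5.63% had an unadjusted p under 0.05. At 10 ng 0 of 7 passed with edgeR, 1 had an unadjusted p under 0.05 (Fkbp5), and of all genes 0.332% passed and 7.48% had an unadjusted p under 0.05. At 1 and 0.5 ng 0 of 7 passed with edgeR and 0 had an unadjusted p under 0.05, against 0.0323% and 0.0117% of all genes past the adjusted threshold and 3.59% and 2.87% at an unadjusted p under 0.05. With the counts of the 4 inputs summed for each genotype and replicate number, 0 of 7 passed with edgeR, 0 had an unadjusted p under 0.05, and of all genes 0.468% passed and 7.90% had an unadjusted p under 0.05. DESeq2 also called 0 of the genes in each of these 5 comparisons. The median log2 fold change of the 7 genes was 0.08 at 50 ng and 0.06 at 10 ng, with a median of 0.00 over all genes in both. Values are given in CPM, which are counts scaled to a library total of 1000000 without length correction, so they are compared between libraries and not between genes.

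**Figure D1:**
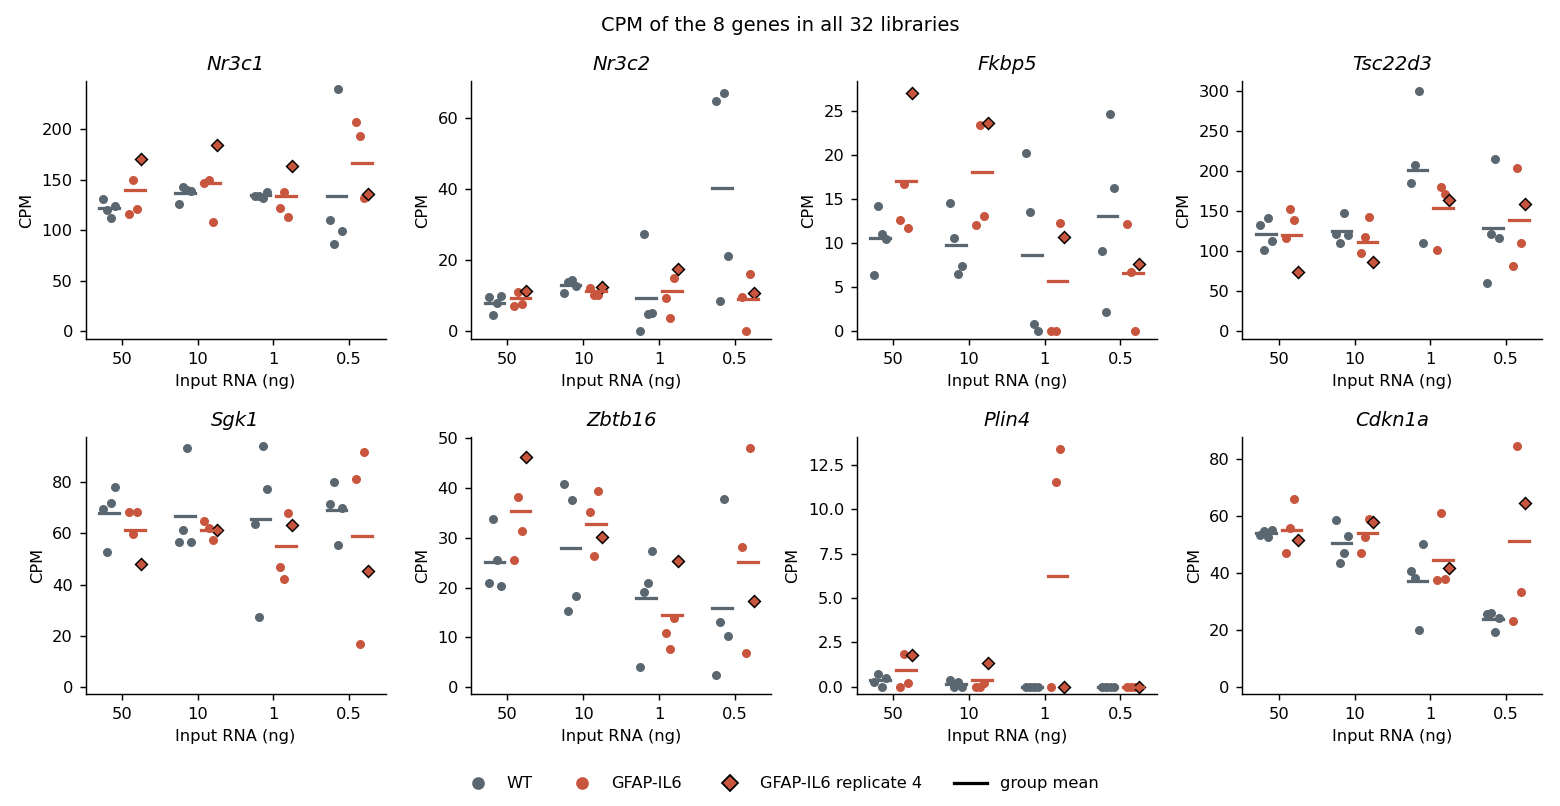
CPM of each gene (y axis, a separate linear scale per panel) against input RNA in ng (x axis) for 4 WT and 4 GFAP-IL6 libraries per input. Points are libraries, bars are group means, and outlined diamonds mark GFAP-IL6 replicate 4, which was the highest of 8 for Fkbp5 (27.1 CPM) and the lowest for Tsc22d3 (73.8 CPM) at 50 ng.

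The labels and the libraries were checked first. Gfap, the astrocyte filament gene, was higher in GFAP-IL6 by a log2 fold change of 2.20 ± 0.267 at 50 ng and 2.49 ± 0.281 at 10 ng (SE, edgeR, adjusted p = 0.000113 and 4.00e-07), and Il6 at 50 ng was counted 4 to 22 times per GFAP-IL6 library against 0 to 1 in WT. The check held less well at low input, where at 1 ng WT replicate 3 had 13 Il6 counts and GFAP-IL6 replicates 2 and 3 had 0, at 0.5 ng Il6 had 0 counts in all 8 libraries, and at 0.5 ng Gfap was lower in GFAP-IL6 replicate 1 (9.61 CPM) than in WT replicate 1 (30.8 CPM). Total counts ran from 261378 to 9840302, with medians of 3603629, 4463016, 1457725 and 1428120 from 50 to 0.5 ng, so that 3 counts were worth 0.305 to 11.5 CPM. GFAP-IL6 replicate 4 stood apart from the other libraries. Of 8735 genes with a mean of at least 10 CPM, it was the highest of 8 libraries at both 50 and 10 ng in 14.7% and the lowest at both in 16.3%, against 0.790% to 5.63% and 0.985% to 4.09% for the other genotype and number combinations. Among GFAP-IL6 libraries at 50 ng it also had the lowest Il6 (0.717 CPM) and the lowest Gfap (30.6 CPM). WT replicate 3 had 3022 to 3390 CPM of 5 choroid plexus markers at the 4 inputs, against 25.5 to 340 CPM in all other libraries. The neuron markers, which check the labelled tissue, summed to 5130 to 7313 CPM, and none of the 5 was at 0 in any group.

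The receptors were examined first. Nr3c1 (ENSMUSG00000024431.12, GRCm38 chromosome 18, 39410545 to 39519421, minus strand) had 131, 120, 112 and 124 CPM in WT replicates 1 to 4 at 50 ng and 116, 150, 121 and 171 CPM in GFAP-IL6. The groups overlapped, and the highest value was that of GFAP-IL6 replicate 4. The estimated log2 fold change was 0.16 ± 0.173 (SE, 95% confidence interval -0.20 to 0.52, edgeR adjusted p = 0.864). At 10 ng WT libraries had 126, 143, 140 and 139 CPM and GFAP-IL6 libraries 147, 150, 108 and 184 CPM. GFAP-IL6 replicate 4 was again the highest, and replicate 3 was the lowest of all 8. The log2 fold change at 10 ng was 0.08 ± 0.160 (SE, edgeR adjusted p = 0.926). The interval at 50 ng corresponds to folds of 0.869 to 1.43. Without GFAP-IL6 replicate 4 the log2 fold changes were 0.04 and -0.06.

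Nr3c2 (ENSMUSG00000031618.11, chromosome 8, 76899442 to 77245012, plus strand) was measured from few reads. At 50 ng it had 9.69, 4.51, 8.07 and 10.1 CPM in WT and 7.24, 11.2, 7.84 and 11.3 CPM in GFAP-IL6, from 6 to 76 counts per library. The groups lay across each other, with a log2 fold change of 0.08 ± 0.312 (SE, 95% confidence interval -0.57 to 0.73, edgeR adjusted p = 0.965). At 10 ng the values were 10.9, 13.9, 14.4 and 12.7 CPM in WT and 12.1, 10.3, 10.3 and 12.4 CPM in GFAP-IL6. There 3 of 4 WT libraries were above all GFAP-IL6 libraries, and the log2 fold change was -0.20 ± 0.315 (SE, edgeR adjusted p = 0.902). With inputs summed it was -0.41 ± 0.242 (SE, edgeR adjusted p = 0.706), from 11.2 to 17.7 CPM in WT and 8.91 to 12.6 CPM in GFAP-IL6. In WT replicate 1, 78 of the 166 summed counts came from the 0.5 ng library, and in WT replicate 3, 87 of 179. Gm10649, a long non-coding RNA gene on the other strand, shares 247 exonic bases with Nr3c2, and reads in them cannot be assigned because the strand setting of the counting was not stated.

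Among the targets, Fkbp5 (ENSMUSG00000024222.14, chromosome 17, 28399094 to 28517527, minus strand) had the largest log2 fold change between genotypes at 50 and 10 ng among the 7 genes that passed the filter. It had 6.36, 14.3, 11.1 and 10.5 CPM in WT replicates 1 to 4 at 50 ng and 12.7, 16.8, 11.8 and 27.1 CPM in GFAP-IL6. Of the GFAP-IL6 libraries 2 lay above every WT library, and the other two lay within the WT range. The group means were 10.6 ± 3.26 and 17.1 ± 7.0 CPM (SD, n = 4). GFAP-IL6 was thus higher by 0.72 ± 0.311 on the log2 scale (SE, 95% confidence interval 0.08 to 1.37, edgeR unadjusted p = 0.0294, adjusted p = 0.835). At 10 ng WT libraries had 14.6, 10.6, 6.57 and 7.48 CPM and GFAP-IL6 libraries 12.1, 23.5, 13.1 and 23.7 CPM. Again 2 GFAP-IL6 libraries, replicates 2 and 4, lay above every WT library, while WT replicate 1 was the highest of its group at 10 ng and the lowest at 50 ng. The log2 fold change at 10 ng was 0.84 ± 0.340 (SE, 95% confidence interval 0.15 to 1.53, edgeR unadjusted p = 0.0186, adjusted p = 0.560).

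The Fkbp5 difference was not the same without GFAP-IL6 replicate 4. It was then 0.35 ± 0.284 on the log2 scale at 50 ng (edgeR unadjusted p = 0.225) and 0.62 ± 0.384 at 10 ng (edgeR unadjusted p = 0.116). In the summed libraries Fkbp5 had 12.1, 11.2, 9.81 and 8.80 CPM in WT and 10.7, 16.7, 10.6 and 20.8 CPM in GFAP-IL6. As at the single inputs, GFAP-IL6 replicates 2 and 4 were above every WT value and the others within the WT range. The log2 fold change was 0.47 ± 0.269 (SE, edgeR adjusted p = 0.691), and 0.21 without replicate 4. At 1 and 0.5 ng the log2 fold changes were -0.43 ± 1.33 and -0.97 ± 1.35 (SE, edgeR adjusted p = 0.997 and 1.0), with 0 counts in 3 of 8 libraries at 1 ng.

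Tsc22d3 (ENSMUSG00000031431.11, chromosome X, 140539528 to 140600659, minus strand) had 133, 101, 141 and 113 CPM in WT at 50 ng and 116, 152, 139 and 73.8 CPM in GFAP-IL6. GFAP-IL6 replicate 4 was the lowest of all 8 libraries, and the other GFAP-IL6 libraries spanned the upper part of the WT range and beyond. On the log2 scale the fold change was -0.08 ± 0.199 (SE, 95% confidence interval -0.49 to 0.33, edgeR adjusted p = 0.938). At 10 ng WT libraries had 122, 110, 148 and 120 CPM and GFAP-IL6 libraries 97.9, 118, 142 and 86.0 CPM, with replicate 4 again the lowest. The log2 fold change at 10 ng was -0.21 ± 0.159 (SE, edgeR adjusted p = 0.789). Without replicate 4 the values at 50 and 10 ng were 0.11 and -0.10, so at 50 ng the sign turned. The leucine zipper gene and Fkbp5, both used as read-outs of receptor activity, thus lay at opposite ends of the 8 libraries in GFAP-IL6 replicate 4.

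Sgk1 (ENSMUSG00000019970.13, chromosome 10, 21882184 to 21999903, plus strand) had 69.7, 52.7, 71.8 and 78.1 CPM in WT at 50 ng and 68.4, 59.7, 68.5 and 48.2 CPM in GFAP-IL6. The groups overlapped, and only GFAP-IL6 replicate 4 lay below the WT range. The log2 fold change was -0.21 ± 0.185 (SE, 95% confidence interval -0.59 to 0.18, edgeR adjusted p = 0.842), and -0.09 without that replicate. At 10 ng the GFAP-IL6 libraries were close together, at 64.7, 62.0, 57.3 and 61.3 CPM, and the WT libraries had 56.8, 61.4, 93.2 and 56.5 CPM. The highest library at 10 ng was WT replicate 3, the library with choroid plexus markers. That replicate was also the highest at 1 ng (94.0 CPM) and with inputs summed (80.8 CPM). At 50 ng and at 0.5 ng (55.6 CPM), with the markers as high, it was not the highest. The part of choroid plexus RNA in the Sgk1 value was not tested. At 10 ng the log2 fold change was -0.15 ± 0.181 (SE, edgeR adjusted p = 0.875) and 0.01 without WT replicate 3.

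Zbtb16 (ENSMUSG00000066687.4, chromosome 9, 48654297 to 48836222, minus strand) had 21.0, 33.8, 25.6 and 20.4 CPM in WT at 50 ng and 25.5, 38.3, 31.4 and 46.2 CPM in GFAP-IL6. Again 2 GFAP-IL6 libraries lay above every WT library. GFAP-IL6 differed from WT by a log2 fold change of 0.49 ± 0.233 (SE, 95% confidence interval 0.01 to 0.97, edgeR unadjusted p = 0.0468, adjusted p = 0.835). Without GFAP-IL6 replicate 4 it was 0.33 ± 0.203 (SE, edgeR unadjusted p = 0.121). At 10 ng WT libraries had 40.9, 15.2, 37.6 and 18.3 CPM and GFAP-IL6 libraries 35.2, 26.3, 39.5 and 30.1 CPM. Here the GFAP-IL6 libraries all lay inside the WT range, and the log2 fold change was 0.20 ± 0.253 (SE, edgeR adjusted p = 0.881). Replicate 4, the highest of 8 at 50 ng, was the fifth at 10 ng.

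Cdkn1a (ENSMUSG00000023067.11, chromosome 17, 29090976 to 29100727, plus strand) had 53.4, 54.9, 52.6 and 55.3 CPM in WT at 50 ng and 47.2, 56.0, 65.9 and 51.6 CPM in GFAP-IL6. The WT values were within 3 CPM of each other, and GFAP-IL6 libraries lay on both sides of them. At 10 ng WT had 58.8, 43.6, 47.0 and 53 CPM and GFAP-IL6 had 47.0, 52.6, 58.9 and 58.1 CPM, over almost the same range. The log2 fold change was -0.01 ± 0.177 at 50 ng and 0.06 ± 0.184 at 10 ng (SE, edgeR adjusted p = 0.994 and 0.955). At 0.5 ng WT had 19.3 to 26.0 CPM and GFAP-IL6 23.1, 84.7, 33.4 and 64.6 CPM, a log2 fold change of 1.05 ± 0.734 (SE, edgeR adjusted p = 1.0). AC167363.2, a locus on the opposite strand that the annotation lists as yet to be tested by experiment, shares 273 exonic bases with Cdkn1a, which makes its counts uncertain in the same way as those of Nr3c2.

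Plin4 (ENSMUSG00000002831.11, chromosome 17, 56100591 to 56109803, minus strand) was at the limit of detection. It had 1, 1, 0 and 4 counts in WT at 50 ng and 0, 2, 1 and 10 counts in GFAP-IL6, and 2, 0, 1 and 0 against 0, 0, 1 and 13 counts at 10 ng. Replicate 4 of GFAP-IL6 had the most counts at both inputs, although at 50 ng replicate 2, a shallower library, had the higher CPM (1.87 against 1.79). At 1 ng 2 GFAP-IL6 libraries had 3 and 24 counts and all others 0, and at 0.5 ng all 8 libraries had 0 counts. The difference in mean CPM passed at none of 50, 10 and 1 ng (two-sided exact permutation test, p = 0.400, 0.886 and 0.429, where 0.0286 is the smallest possible with 4 against 4). In the summed libraries it had 0.0991 to 0.272 CPM in WT and 0, 1.86, 1.99 and 1.10 CPM in GFAP-IL6, so 3 of the 4 GFAP-IL6 sums lay above every WT sum. Of the summed counts, 24 of 26 in replicate 3 and 3 of 5 in replicate 2 came from the 1 ng library. The 23 counts of replicate 4 came from 50 and 10 ng. Without the filter on low counts Plin4 did not pass either, with an unadjusted p of 0.0109 at 1 ng and 0.0143 with inputs summed (edgeR, adjusted p = 0.684 and 0.382). Its exons share 17 bases with Hdgfl2, a protein-coding gene on the opposite strand.

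**Figure D2:**
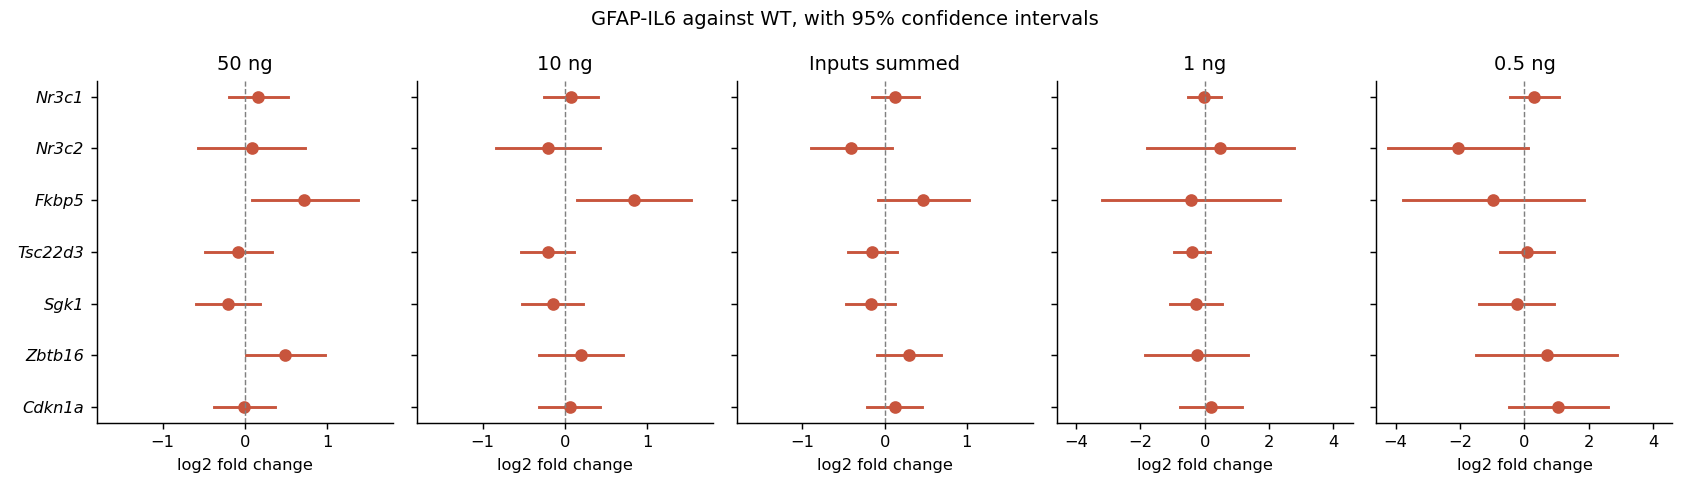
Log2 fold change of GFAP-IL6 against WT (x axis) for the 7 genes that passed the filter, from the edgeR fit at each input and with inputs summed. Points are estimates and lines 95% confidence intervals, and the axes of the last 2 panels are wider. The interval lies above 0 only for Fkbp5 at 50 and 10 ng and for Zbtb16 at 50 ng, before adjustment for the number of genes.

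Separation of the groups was counted as well. At 50 ng 0 of the 7 genes had groups that did not overlap, against 3.33% of all tested genes, and at 10 ng 0 of 7, against 4.10%. Whether the genotype difference itself changed with input was tested as an interaction with the 50 ng libraries. In the comparisons of 10, 1 and 0.5 ng with 50 ng, 0 of the 7 genes passed with edgeR, and 0% of all genes passed in each. Of all genes 174 (1.38%), 471 (4.17%) and 758 (6.65%) had an unadjusted p under 0.05. An unadjusted p under 0.05 was found for 1 of the 7 genes, Nr3c2 at 0.5 ng. Its interaction was -2.24 ± 1.08 on the log2 scale (SE, edgeR unadjusted p = 0.0489, adjusted p = 0.744). DESeq2 called 0 of the genes for the interaction at each input.

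GFAP-IL6 replicate 4 was described further because it held several of the extreme values, a choice made after the values were seen. Relative to the mean of the other 3 GFAP-IL6 libraries it had 1.97 times as much Fkbp5 at 50 ng and 1.46 times as much at 10 ng. For Nr3c1 the ratios were 1.32 and 1.36, and for Tsc22d3 0.544 and 0.719. These 3 genes were at the same end of the 8 libraries at both inputs. Zbtb16 (1.46 and 0.894), Sgk1 (0.736 and 0.999) and Cdkn1a (0.916 and 1.10) were not. Such extremes were common in this replicate. Of the 8735 genes with a mean of at least 10 CPM, it was the highest at both inputs in 14.7% and the lowest at both in 16.3%. In the same library the 5 oligodendrocyte markers summed to 3401 CPM at 50 ng and 3900 CPM at 10 ng, the lowest of 8 at both, and the 5 astrocyte markers to 3611 CPM at 50 ng, the highest, and 3055 CPM at 10 ng, where GFAP-IL6 replicate 3 had 3180 CPM. The part of cell composition or of RNA quality in the values of this library was not tested.

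**Figure D3:**
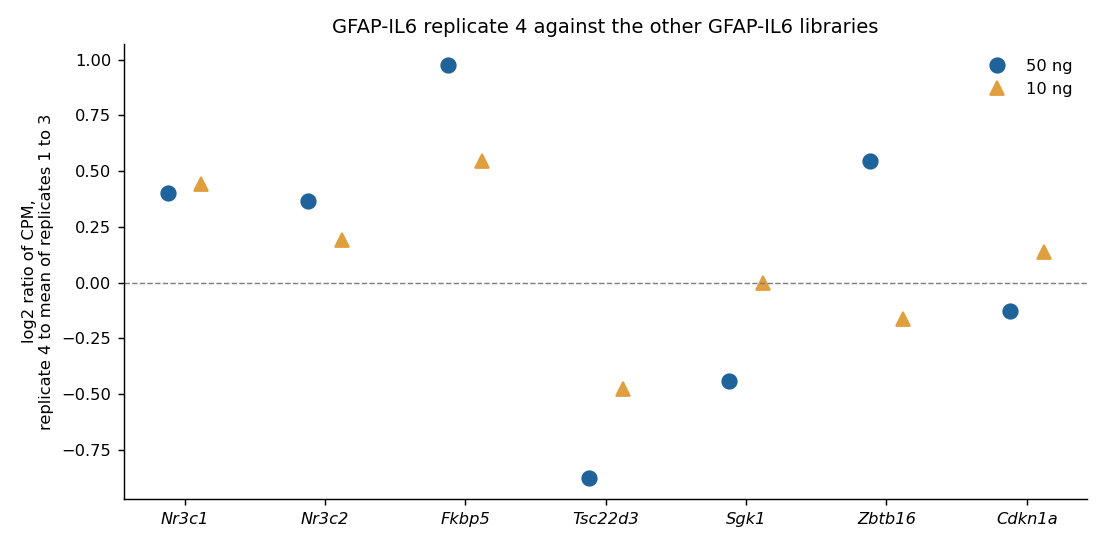
Log2 ratio (y axis) of CPM in GFAP-IL6 replicate 4 to the mean CPM of GFAP-IL6 replicates 1 to 3, for 7 genes (x axis) at 50 ng (circles) and 10 ng (triangles), with 1 library behind each point and no error bar. Fkbp5, Nr3c1 and Nr3c2 lie above 0 and Tsc22d3 below 0 at both inputs, whereas Zbtb16 and Cdkn1a change side.

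It was then asked whether differences between libraries of the same genotype recurred in the library with the same number at the other input. Deviations of log2(CPM + 1) from the genotype mean at 50 and 10 ng were compared over the 8 genotype and number combinations. For Tsc22d3 Pearson's r was 0.841 and Spearman's rho 0.905 (two-sided exact permutation test within genotype, p = 0.0347 and 0.0174, adjusted over 8 genes 0.278 and 0.139, n = 8). Without the 2 combinations farthest from the median at 50 ng r was 0.684. For Nr3c1 r was 0.625 and rho 0.476 (exact permutation p = 0.325 and 0.385, adjusted 0.649 and 0.806), and r was 0.556 without the 2 farthest. Fkbp5 had an r of 0.214 and a rho of 0.0952 (exact permutation p = 0.616 and 0.842, adjusted 0.822 and 0.958), with an r of 0.552 without the 2 farthest. Zbtb16 (r = -0.452), Nr3c2 (-0.363), Sgk1 (0.0565), Plin4 (0.289) and Cdkn1a (0.422) also did not pass, with adjusted exact permutation p from 0.649 to 0.906. Their rho ran from -0.381 to 0.310 (adjusted exact permutation p from 0.806 to 0.958), and their r without the 2 farthest from -0.323 to 0.433. Thus 0 of the 8 genes passed after adjustment, and the order of libraries at 50 ng was not shown to recur at 10 ng for any of them.

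**Figure D4:**
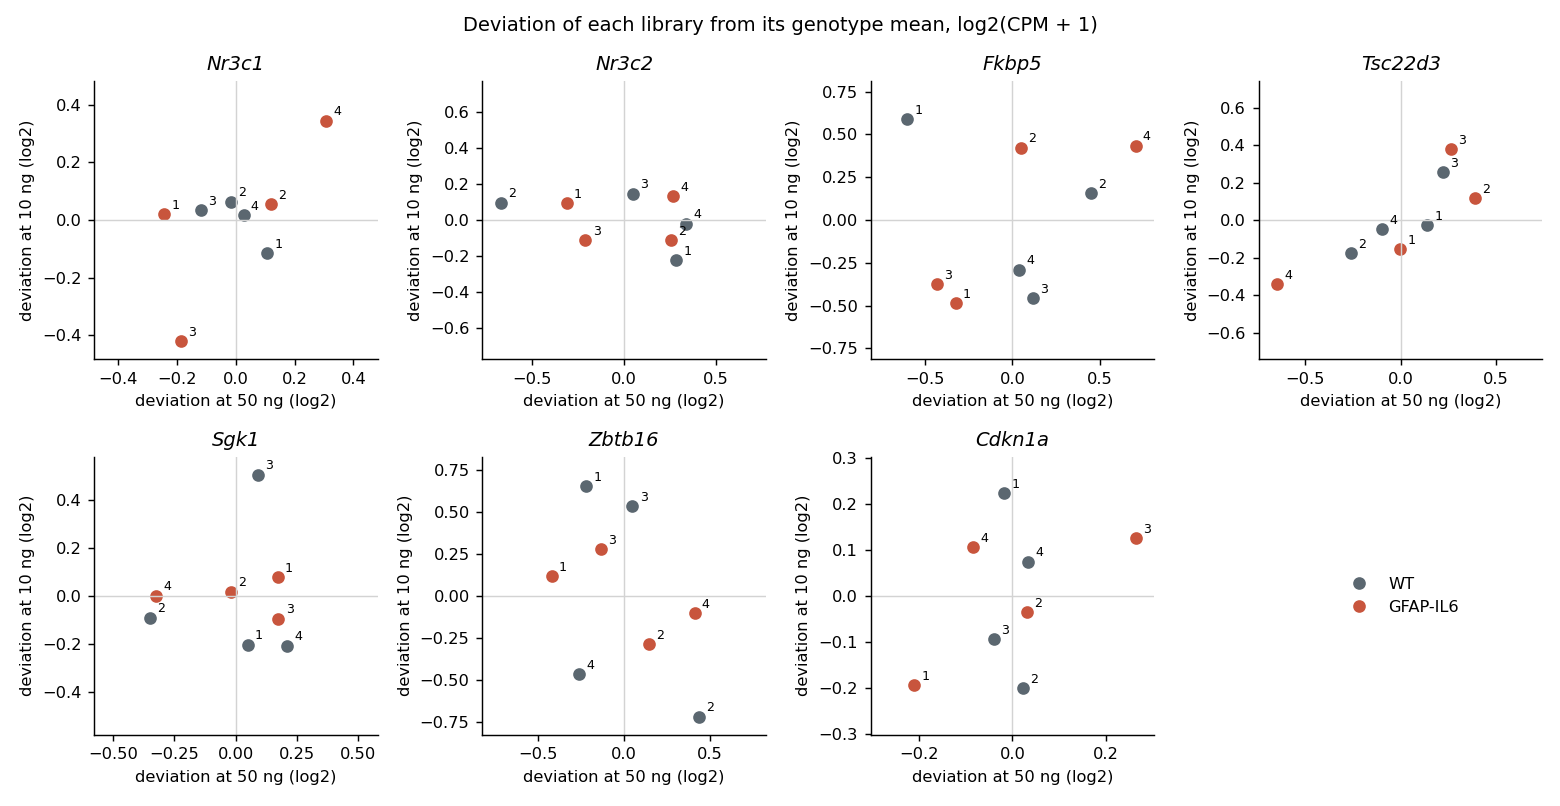
Deviation of each library from the mean of its genotype in log2(CPM + 1), at 50 ng (x axis) and 10 ng (y axis), for WT (grey) and GFAP-IL6 (red). Points carry the replicate number, and the scales differ between panels. The points of Tsc22d3 rise from lower left to upper right (r = 0.841), with GFAP-IL6 replicate 4 lowest on both axes, whereas those of Sgk1 (r = 0.0565) show no such order.

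Target genes of a shared receptor might vary together between animals, so all 21 pairs of the 7 genes with a mean of at least 5 CPM were compared at 50 ng after removing the genotype means. After adjustment 0 of 21 pairs passed, and 2 had an unadjusted exact permutation p under 0.05. Sgk1 and Zbtb16 had the strongest relation, and it was inverse (r = -0.914 and rho = -0.833, two-sided exact permutation test, p = 0.0104 and 0.0312, adjusted over 21 pairs 0.219 and 0.486, n = 8). It was -0.705 without the 2 farthest libraries and -0.870 without GFAP-IL6 replicate 4. With library sizes scaled by TMM it was -0.958 and passed (exact permutation p = 0.00174, the smallest possible, adjusted p = 0.0365). At 10 ng the same pair had an r of 0.361 (exact permutation p = 0.866, adjusted p = 0.866), so the direction at 50 ng was not found again. Fkbp5 and Zbtb16 had an r of 0.836 and a rho of 0.762 at 50 ng (exact permutation p = 0.0278 and 0.0694, adjusted 0.292 and 0.486), an r of 0.796 without the 2 farthest and an r of -0.109 at 10 ng. Fkbp5 and Tsc22d3, the pair most often read together as hormone response, had an r of -0.703 at 50 ng (rho = -0.50, exact permutation p = 0.0938 and 0.253, adjusted 0.334 and 0.853, and -0.459 without the 2 farthest) and -0.418 at 10 ng. Without GFAP-IL6 replicate 4 the r of this pair was weaker, at -0.301 at 50 ng and -0.218 at 10 ng. The receptors Nr3c1 and Nr3c2 had an r of 0.591 and a rho of 0.643 at 50 ng (exact permutation p = 0.0955 and 0.0521, adjusted 0.334 and 0.486, 0.485 without the 2 farthest). At 10 ng their r was 0.610 and rho 0.714 (exact permutation p of r = 0.0312, adjusted p = 0.600). It was the only pair with an unadjusted p of r under 0.05 at 10 ng. Without GFAP-IL6 replicate 4 the r of this pair was 0.558 at 50 ng and 0.493 at 10 ng. At 10 ng the adjusted exact permutation p of the 21 pairs ran from 0.600 to 0.866, and 13 pairs had the same sign as at 50 ng. The values of a pair come from the same libraries, and the same total enters the CPM of both genes.

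The genes whose library pattern was most like that of a target were listed for Fkbp5, Tsc22d3 and Sgk1, over the 16 libraries at 50 and 10 ng and among 8735 genes. For Fkbp5 they were Hivep3 (r = 0.945), Zfc3h1 (0.890), Kmt2e (0.882), Fam199x (0.866) and Phactr3 (0.865). For Tsc22d3 they were Car4 (0.971), Arl2 (0.957), Dctpp1 (0.948), Aldoc (0.939) and Aars (0.937). For Sgk1 they were Cebpd (0.861), Slc35g2 (0.841), Osgep (0.833), Thoc5 (0.814) and Cog6 (0.805). None of the 15 was another of the 8 genes. Cebpd was on the list of other glucocorticoid-responsive genes, and Aldoc is an astrocyte marker. Without GFAP-IL6 replicate 4 the values lay between 0.810 and 0.943. They are the highest of many values and are given as a description.

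The amount of RNA was compared next, since a read-out of hormone signalling has to hold at the input at hand. At 10 ng against 50 ng 0 of the 7 genes passed with edgeR (1 at an unadjusted p under 0.05) and 0% of all genes passed, with 523 (4.15%) at an unadjusted p under 0.05. At 1 ng 0 of 7 passed with edgeR, 2 had an unadjusted p under 0.05, and of all genes 1.20% passed and 11.9% had an unadjusted p under 0.05. At 0.5 ng 0 of 7 passed with edgeR, 1 had an unadjusted p under 0.05, and of all genes 2.55% passed and 13.8% had an unadjusted p under 0.05. Tsc22d3 came nearest, with 185, 207, 300 and 110 CPM in WT and 102, 180, 171 and 164 CPM in GFAP-IL6 at 1 ng. Of these 8 libraries 6 were above the highest library at 50 ng. The log2 difference from 50 ng was 0.59 ± 0.178 (SE, 95% confidence interval 0.22 to 0.95, edgeR unadjusted p = 0.00265, adjusted p = 0.110), and 0.47 ± 0.175 without GFAP-IL6 replicate 4. It passed in 2 of the 13 alternative fits of this comparison, with DESeq2 (0.61, adjusted p = 0.0392) and in a fit blocked by replicate number (0.57, adjusted p = 0.0458). At 0.5 ng the difference was 0.18 ± 0.229 (SE, edgeR adjusted p = 0.806), with 60.7 to 215 CPM.

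Zbtb16 was lower at 1 ng than at 50 ng by a log2 difference of -0.77 ± 0.338 (SE, edgeR unadjusted p = 0.0313, adjusted p = 0.347), with 3.93 to 27.4 CPM against 20.4 to 46.2 CPM. Cdkn1a had differences of -0.37 ± 0.215 at 1 ng and -0.60 ± 0.296 at 0.5 ng (SE, edgeR adjusted p = 0.528 and 0.369). Nr3c2 was higher than at 50 ng at 10 ng (0.48 ± 0.205, edgeR unadjusted p = 0.0262, adjusted p = 1.0) and at 0.5 ng (1.25 ± 0.542, edgeR unadjusted p = 0.0303, adjusted p = 0.285), neither past the threshold. At 0.5 ng its WT libraries had 64.9, 8.67, 67.1 and 21.3 CPM and its GFAP-IL6 libraries 9.61, 0, 16.2 and 10.7 CPM. Of the WT libraries 3 lay above every GFAP-IL6 library, 2 of them far above, and WT replicate 2 lay among the GFAP-IL6 values. The glucocorticoid receptor gene was steadier than Nr3c2, with log2 differences from 50 ng of 0.15 ± 0.118, 0.10 ± 0.142 and 0.24 ± 0.201 at 10, 1 and 0.5 ng (SE, edgeR adjusted p = 1.0, 0.854 and 0.672). Sgk1 had smaller differences, of 0.00 ± 0.127, 0.00 ± 0.200 and 0.07 ± 0.271 (SE).

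The spread between libraries was set beside the spread that counting alone would give. At 50 ng the coefficient of variation (CV) over 8 libraries was 9.79% for Cdkn1a, 15.3% for Nr3c1, 15.8% for Sgk1, 21.1% for Tsc22d3, 26.2% for Nr3c2, 29.5% for Zbtb16 and 44.4% for Fkbp5. Counting error alone would give 8.38% in Cdkn1a, 5.40% in Nr3c1, 7.59% in Sgk1 and 5.74% in Tsc22d3. It would give 20.5% in Nr3c2, 11.5% in Zbtb16 and 16.6% in Fkbp5. The spreads of Fkbp5, Tsc22d3, Nr3c1, Zbtb16 and Sgk1 were thus well above their counting errors. Those of Cdkn1a and Nr3c2 were close to theirs. These values include the difference between genotype means. Within genotype the CV of Fkbp5 at 50 ng was 30.8% in WT and 40.9% in GFAP-IL6, and that of Nr3c2 31.4% and 22.9%. At 0.5 ng the CV was 37.3% to 105% over these genes, with a counting error of 8.86% to 32.6%. No molecular identifiers were described for these libraries, so reads from PCR copies are not independent and these counting errors are lower limits. For Plin4 the CV was 110% at 50 ng with a counting error of 78.5%.

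**Figure D5:**
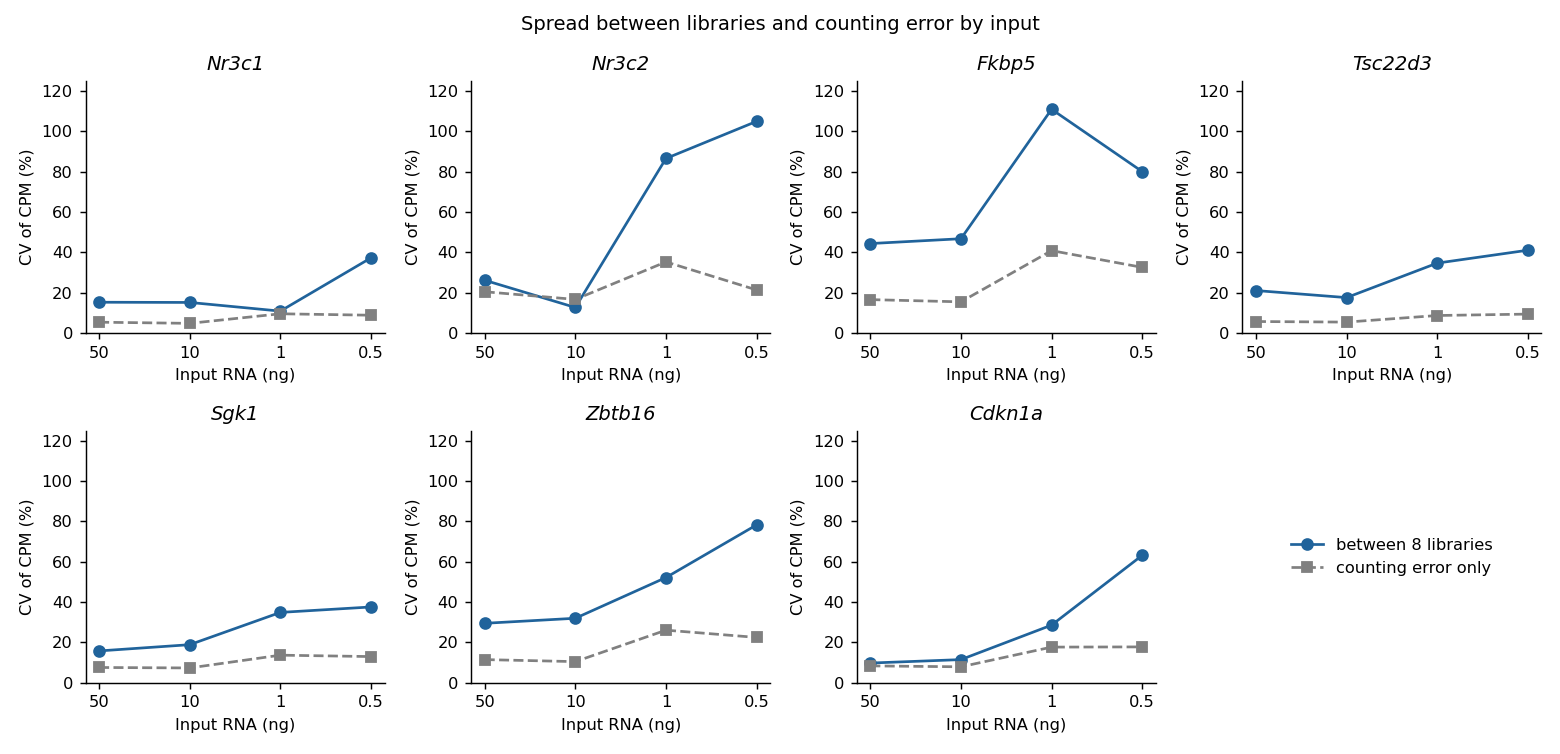
Coefficient of variation of CPM over the 8 libraries of an input (circles, in %) and the part expected from counting error (squares, in %) against input RNA in ng for 7 genes. Over both genotypes together, Fkbp5 has the widest spread of these 7 genes at 50 ng (44.4% against 16.6% from counting) and Nr3c2 at 0.5 ng (105% against 21.4%).

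Further genes of the pathway were counted from 6 lists. In the list of 18 other glucocorticoid-responsive genes, among them Per1, Klf9 and the metallothionein genes, 0 of 14 tested genes passed at 50 ng with edgeR and 2 had an unadjusted p under 0.05. At 50 ng 10 of the 14 lay higher and 4 lower in GFAP-IL6, with a median log2 fold change of 0.13, and at 10 ng the counts were 9 and 5 with a median of 0.15 (0.00 over all genes at both). With inputs summed 0 of 17 passed with edgeR, and 11 lay higher and 6 lower. There 5 had an unadjusted p under 0.05, with Per1, Bcl6, Dusp1 and Glul higher and Angptl4 lower. Over all genes the share at an unadjusted p under 0.05 was 5.63% at 50 ng, 7.48% at 10 ng and 7.90% with inputs summed, and it stands beside the counts of each list here. All 11 receptor chaperones and cochaperones, such as Hsp90aa1 and Fkbp4, were tested and 0 passed at any input with edgeR, with 0 at an unadjusted p under 0.05 in the genotype comparisons and medians of -0.05 at 50 ng and -0.03 at 10 ng. Of 8 genes of steroid handling and the stress axis 6 were tested at 50 ng and 0 passed with edgeR (2 at an unadjusted p under 0.05). At both 50 and 10 ng 2 of the 6 lay higher and 4 lower (medians -0.32 and -0.06). With inputs summed 1 lay higher and 5 lower (median -0.22). All 10 receptor coregulators lay higher in GFAP-IL6 at 50 and 10 ng, with medians of 0.21 and 0.12, and 0 passed with edgeR (0 and 1 at an unadjusted p under 0.05). At 1 ng 6 of them lay higher and 4 lower, and at 0.5 ng 7 and 3, while over all genes 49.6% lay higher at 50 ng and 50.4% at 10 ng. Of 13 p53 targets, listed because p53 also drives Cdkn1a, 10 were tested at 50 ng and 0 passed with edgeR (0 at an unadjusted p under 0.05, median 0.11). Of 16 relatives of the 8 genes 10 were tested at 50 ng and 0 passed with edgeR (0 at an unadjusted p under 0.05, median 0.14). Across the input comparisons of the 6 lists 1 gene passed, the p53 target Sesn2, which was lower at 0.5 ng than at 50 ng (-3.26 ± 0.876 on the log2 scale, SE, edgeR adjusted p = 0.0447).

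The summed levels of markers of other cell types are given beside these values. At 50 and 10 ng 1 of the astrocyte markers passed the test of genotype (Gfap), and 0 of the neuron, oligodendrocyte, microglia and endothelial markers did (edgeR). Of 5 microglia markers 2 had an unadjusted p under 0.05 at 50 ng, 4 at 10 ng and 3 with inputs summed. Of the endothelial markers, 2 of 4 tested did at 50 ng, 3 of 4 at 10 ng and 5 of 5 with inputs summed. Over all genes the share was 5.63%, 7.48% and 7.90%. The 5 endothelial markers summed to 101 to 128 CPM in WT at 50 ng and 163 to 196 CPM in GFAP-IL6, and at 10 ng to 103 to 116 and 173 to 196 CPM. At both inputs the groups did not overlap. The 5 microglia markers summed to 301 to 343 CPM in WT and 324 to 515 CPM in GFAP-IL6 at 50 ng. The astrocyte markers, Gfap among them, summed to 2578 to 3079 and 2831 to 3611 CPM. None of these markers was at 0 in all libraries of a group. With inputs summed the endothelial marker Ly6c1 was higher in GFAP-IL6 (log2 fold change 0.58, edgeR adjusted p = 0.0460) and the striatal marker Ppp1r1b lower (-0.66, edgeR adjusted p = 0.0409). Fkbp5, Tsc22d3, Sgk1 and Zbtb16 are transcribed in glial and vascular cells as well as in neurons, and the part of these cell types in the values of the 8 genes was not tested.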

How the data were processed

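3'Pool-seq, which reads the 3' ends of polyadenylated RNA, was run on 32 libraries of frontal cortex RNA. The values are deposited raw counts per gene. The authors trimmed poly(A) sequence, aligned reads to mm10 with STAR (2.4 per the labels) and counted them over GENCODE genes with featureCounts of Subread, and no strand setting was stated. The labels name another build, and gene positions here come from GENCODE vM21 (GRCm38), which held 32593 of the 33000 identifiers. The deposited gene length column was not used.

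Counts were scaled to CPM by library total. Genotypes were compared within each input and with inputs summed by edgeR 4.0.16 (R 4.3.3, limma 3.58.1) with filterByExpr, TMM and the quasi-likelihood test, and passing was a Benjamini-Hochberg adjusted p under 0.05 over all genes tested. Input effects and interactions were fitted on 16 libraries. SE came from the F statistic. DESeq2 1.42.0, other size factors, no filter, 1 fit of all 32 libraries, a replicate block and leaving out each replicate were alternatives. Correlations used log2(CPM + 1) with exact permutations within genotype (Python 3.11.15, scipy 1.17.1). The statistics were tested on simulated data. Of 48 library pairs within groups, none differed by as little as counting noise (lowest chi-square per degree of freedom 2.37). Named genes were the 8, list and marker genes passing a genotype test, and the 5 genes most like each of Fkbp5, Tsc22d3 and Sgk1. Sesn2, Dusp1, Abcb1a and the list genes named for an unadjusted p or for GFAP-IL6 replicate 4 fall outside this rule. They were chosen after their values were seen. The genes and lists were chosen with earlier results of these data known. Counting errors cover counting only, since reads from PCR copies are not independent.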

Additional observations from a re-analysis of the deposited data

Results flagged for a closer look

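Of 64 groups of 4 libraries (8 genes, 4 inputs, 2 genotypes), 61 had any spread to examine, and in 3 the highest library stood apart from the others by Dixon's criterion. Chance gives about 1 in 20 groups. Nr3c1 had 240 CPM in WT replicate 3 at 0.5 ng, against 86.7 to 110 CPM in the other WT libraries. Sgk1 had 93.2 CPM in WT replicate 3 at 10 ng, against 56.5 to 61.4 CPM. Plin4 had 1.32 CPM (13 counts) in GFAP-IL6 replicate 4 at 10 ng, against 0 to 0.198 CPM. WT replicate 3 was also the library with choroid plexus markers, at 3022 CPM at 10 ng and 3144 CPM at 0.5 ng, and their part in these values was not tested.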

How the results depend on the processing

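In 60 alternative fits of the genotype comparisons none of the 8 genes passed (lowest adjusted p = 0.182), and none did in 39 fits of the interaction (0.351). In 39 fits of input 2 gave a passing gene, Tsc22d3 at 1 ng against 50 ng, so that 1 gene passed with DESeq2 (adjusted p = 0.0392) and 1 with the replicate block (0.0458). With TMM library sizes 1 pair of genes passed at 50 ng, Sgk1 with Zbtb16. Leaving out each replicate gave Fkbp5 log2 fold changes of 0.35 to 0.91 at 50 ng and 0.62 to 1.13 at 10 ng, both lowest without GFAP-IL6 replicate 4. Over all genes, 33 passed at 50 ng, 93 with no filter, 78 without GFAP-IL6 replicate 4 and 11 to 17 without any 1 of the other replicates except WT replicate 3. At 10 ng 40 passed, 77 with the replicate block and 27 to 54 with a replicate left out. At 1 and 0.5 ng 3 and 1 passed, 11 and 16 with DESeq2. With inputs summed 63 passed and 180 with the replicate block. For input, 0 passed at 10 ng (136 with the block, 14 without GFAP-IL6 replicate 4), 136 at 1 ng (372 with DESeq2, 69 to 215 with a replicate left out) and 291 at 0.5 ng (1022 with no filter, 192 with the block, 146 to 283 with a replicate left out). For the interaction 0 passed at each input, and with DESeq2 4 at 1 ng and 69 at 0.5 ng. Inputs were summed and deviations compared by number, but the number was no block in the fits, because the labels do not say what it marks and not every same-number correlation was over 0.1. Libraries sharing a number at 50 and 10 ng had deviations that correlated by 0.0772 to 0.237 in WT and 0.0516 to 0.51 in GFAP-IL6, and 4 and 3 of 4 correlated best with their own number. For 50 against 1 ng 4 and 4 of 4 did, and for 50 against 0.5 ng 4 and 3 of 4, at correlations of 0.0214 to 0.185. These values, and the choroid plexus markers of WT replicate 3 at all 4 inputs, are a hint from the data that numbers go together across inputs. The main input and interaction fits took no account of it and treated such libraries as separate. At 50, 10 and 1 ng each of the 4 WT libraries also correlated best with the GFAP-IL6 library of its number. At 0.5 ng 1 of 4 did. The correlations were 0.0361 to 0.189 at 50 ng, 0.039 to 0.131 at 10 ng and 0.0158 to 0.0346 at 1 ng. What the number marks across genotypes was not tested, and the main genotype fits leave it out. The causes of the changes in passing genes were not tested either. At 1 and 0.5 ng intervals of the genes with few counts were too wide to show a difference of the size seen at 50 ng.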

Other observations

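Several list genes had a low unadjusted p and did not pass, and the values of 2 of them are given here, chosen after they were seen. Dusp1, a phosphatase gene induced by glucocorticoids and by inflammatory signals, had 41.7 to 51.8 CPM in GFAP-IL6 replicates 1 to 3 at 50 ng, 29.9 CPM in replicate 4 and 18.1 to 35.9 CPM in WT. At 10 ng the values were 52.6 to 60.8, 29.5 and 12.5 to 40.4 CPM. The log2 fold changes were 0.53 ± 0.222 and 0.72 ± 0.247 (SE, edgeR unadjusted p = 0.0262 and 0.00598, adjusted p = 0.835 and 0.419). Unlike Fkbp5, Dusp1 was thus lower in replicate 4 than in the other GFAP-IL6 libraries. The list of other glucocorticoid-responsive genes was mixed in this replicate. Per1, Klf9, Bcl6 and Glul were there the highest of 8 libraries at both 50 and 10 ng, like Fkbp5, and Nfkbia and Mt1 the lowest at both. Abcb1a, which encodes a drug and steroid exporter of brain endothelium, had a log2 fold change of 1.20 ± 0.376 at 50 ng, 0.69 ± 0.424 at 10 ng and -0.04 ± 1.20 at 1 ng (SE, edgeR adjusted p = 0.476, 0.744 and 0.997). At 0.5 ng it was 2.18 ± 1.17 and with inputs summed 1.16 ± 0.304 (SE, edgeR adjusted p = 1.0 and 0.104). With inputs summed 1 of the 6 tested genes of its list lay higher, Abcb1a itself, and 5 lay lower. The endothelial markers were higher in the same libraries, and their part in the Abcb1a value was not tested.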
